A study of Homo sapiens with 18 samples.

Results

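The 47 genes described here encode the extracellular and membrane part of WNT signalling, with 3 nuclear or target genes. They were chosen by symbol from the 26372 genes of an RNA-seq table: 19 WNT ligands, 10 Frizzled (FZD) receptors, the co-receptors LRP5 and LRP6, 4 Dickkopf (DKK) proteins, 4 secreted Frizzled-related proteins (SFRP), 4 R-spondins (RSPO), WIF1, AXIN2, LEF1 and TCF7. The rule uses no measured value. Of these genes, 22 had a mean of at least 1 FPKM over all libraries and were tested, 25 lay below that mean, and among these RSPO2 and WIF1 were listed at 0 in every library. FPKM counts fragments per unit of transcript length and of library size, so levels can be set beside each other between genes.

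WNT proteins are lipid-modified ligands that bind a Frizzled receptor. With LRP5 or LRP6 as co-receptor they stabilise beta-catenin, which enters the nucleus and acts through the TCF and LEF factors; other ligand and receptor pairs act on planar polarity and the cytoskeleton without beta-catenin. SFRPs and WIF1 bind the ligands, DKK1 and DKK2 bind LRP5 and LRP6, and R-spondins raise the amount of receptor at the surface. In the neural crest, from which sympathetic neurons and neuroblastoma arise, WNT signals act in induction, migration and lineage choice.

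The libraries came from SH-SY5Y, an established human neuroblastoma line, infected with lentivirus made from the FUGW plasmid. The virus carried ZNHIT3, a zinc-finger protein tied by the series title to assembly of small nucleolar ribonucleoproteins, as wild type (WT), with the C14R substitution, or with a deletion. Each construct was sampled at day 0 and at day 18 of neuronal differentiation, with 3 libraries in each of 6 groups. Day comparisons thus ask what differed between the days, and construct comparisons what differed between the constructs. Differentiation began 48 hours after infection in serum-free neurobasal and B27 medium with 50 ng/ml BDNF, 10 µM all-trans retinoic acid, dibutyryl cyclic AMP at 2 mM and KCl at 20 mM. The deletion is labelled 251 to 254 in replicate 1, 251 to 255 in replicate 2 and 251 to 256 in replicate 3. The design text gives 251 to 254 only. The replicates were kept as 1 group, and whether their deletions differ was not checked. Every day 18 library was differentiated, so effects of differentiation, time since infection, medium and additives cannot be told apart. No uninfected library was used here, and every cell also has its own ZNHIT3 gene. The labels do not say that replicates were separate cultures, so p-values measure only the spread between these libraries, which may be technical.

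ZNHIT3 itself read 531 to 542 FPKM in WT, 419 to 432 in C14R and 292 to 310 in deletion libraries at day 0, and 1103 to 1193, 600 to 756 and 294 to 313 at day 18, so its level moved with construct and, in WT and C14R, with day. Its part in the results below was not tested. At day 0, 4 libraries (WT replicate 1, C14R replicates 1 and 3, deletion replicate 1) held over 50% of their FPKM sum in the small nucleolar RNA SNORD3A, while the upper quartile of FPKM lay between 10.9 and 11.3 in all 18. C14R replicate 1 of day 18 stood apart in earlier results of these data. From the steps of low values, day 0 libraries had 60.7% to 87.1% and day 18 libraries 82.4% to 100% of the depth of the deepest library; the depth itself is unknown.

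The labelled cell type was checked against marker genes. Of the sympathetic neuroblast markers, HAND2 read 263 to 307 FPKM and ISL1 55.3 to 71.3 FPKM over all libraries. TH, which defines catecholamine synthesis, was listed at 0 to 0.08 FPKM at day 0 and at 0.289 to 1.02 FPKM at day 18. Endothelial markers summed to at most 0.167 FPKM, and HBB, the blood marker for red cells, was listed at 0 throughout.

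Promoters are shown for 4 genes whose level changed strongly between the days: the receptors FZD5 and FZD4, which moved in opposite directions, the co-receptor LRP5 and the ligand WNT2B. Each is the 250 bases before the RefSeq start (GRCh38.p14), 5′ to 3′ in the direction of the gene, with the GC box GGGCGG, read on both strands (CCGCCC on the other), in capitals. They lie at chr2:207769907-207770156 (minus strand), chr11:86955396-86955645 (minus), chr11:68312341-68312590 (plus) and chr1:112466291-112466540 (plus).
FZD5: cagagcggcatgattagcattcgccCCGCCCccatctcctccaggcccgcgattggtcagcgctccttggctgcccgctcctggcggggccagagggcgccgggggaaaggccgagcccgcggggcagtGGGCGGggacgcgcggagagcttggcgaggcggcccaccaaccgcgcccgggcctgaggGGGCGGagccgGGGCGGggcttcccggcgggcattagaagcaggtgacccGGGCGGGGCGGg
FZD4: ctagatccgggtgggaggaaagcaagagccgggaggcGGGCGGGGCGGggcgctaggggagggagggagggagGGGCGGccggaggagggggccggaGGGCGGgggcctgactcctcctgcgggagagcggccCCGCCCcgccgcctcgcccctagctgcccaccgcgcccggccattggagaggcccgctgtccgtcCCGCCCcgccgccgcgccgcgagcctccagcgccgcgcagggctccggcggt
LRP5: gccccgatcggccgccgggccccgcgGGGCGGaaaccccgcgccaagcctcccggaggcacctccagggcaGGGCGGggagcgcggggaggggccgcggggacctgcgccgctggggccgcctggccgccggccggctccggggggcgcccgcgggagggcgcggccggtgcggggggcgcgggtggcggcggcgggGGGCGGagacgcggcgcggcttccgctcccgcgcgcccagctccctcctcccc
WNT2B: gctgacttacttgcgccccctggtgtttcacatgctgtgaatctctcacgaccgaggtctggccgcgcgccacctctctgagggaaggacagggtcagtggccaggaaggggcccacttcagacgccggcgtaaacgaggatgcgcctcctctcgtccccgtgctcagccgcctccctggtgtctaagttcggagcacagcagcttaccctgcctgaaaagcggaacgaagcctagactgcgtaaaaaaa
FZD5 and FZD4 each held 6 GC boxes, LRP5 held 3 and WNT2B 0, and G and C made up 76.8%, 80.8%, 87.2% and 60.4% of the bases. In FZD5 and FZD4 some of these boxes overlap each other. Whether the number of boxes goes with the change of a gene was not tested. RefSeq promoters were matched for 32 of the 47 genes, and 27 of these (84.4%) held a GC box, against 42.3% of 27305 promoters of the same length. The TCF/LEF motif CTTTGAT was found in 0 of the 32 and in 2.28% of all, and the retinoic acid response element, a direct repeat of AGGTCA with 5 bases between, in 0 and in 0.00366%. The cyclic AMP response half-site TGACG was found in 4 of the 32 (12.5%; SFRP4, WNT1, WNT2 and WNT5B) and in 21.7% of all, each searched on both strands.

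Between day 0 and day 18 the ligands, receptors and antagonists changed in both directions. WNT5A, FZD4 and LRP5 fell, while WNT2B, WNT3, FZD5, LRP6, DKK3, SFRP1 and AXIN2 rose, each in all 3 lines. In WT, 17 of the 22 tested genes passed the threshold (limma on log2(FPKM + 1), Benjamini-Hochberg adjusted p under 0.05), 11 higher and 6 lower. Over all 13785 genes tested, 72.2% passed, 38.2% higher and 34.0% lower. The share of the members in WT, 77.3%, lay near that background. The count was 15 in C14R (9 higher and 6 lower; background 72.9%, 37.9% higher and 35.0% lower) and 19 in deletion (12 higher and 7 lower; background 73.0%, 38.6% higher and 34.4% lower). In each line 4 members passed with a log2 change of 1 or more in size, against 14.1%, 13.9% and 14.4% of all genes.

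The median log2 change of the members was 0.24 in WT, 0.03 in C14R and 0.16 in deletion, beside 0.03, 0.02 and 0.03 over all genes. In all 3 lines 8 members passed as higher and 6 as lower, and 0 passed in opposite directions. Over all genes tested 33.3% passed as higher in all 3 lines, 29.7% as lower and 0.102% in opposite directions, so the members lay near the background here too. For 8 members all 9 day 18 libraries lay above all 9 day 0 libraries (background 29.8%), and for 6 they lay below (background 26.9%; either way 56.8%). FZD5 and WNT4 had day 0 means under 1 FPKM and passed the filter through their day 18 level. With 2227 small RNA symbols left out and the rest rescaled, the median of all genes in WT moved from 0.03 to 0.23, and 76.5% rather than 64.7% of the called members were higher (68.5% rather than 52.9% of all called genes). The median moved from 0.02 to 0.20 in C14R and from 0.03 to 0.24 in deletion. Members whose call changed or whose change moved by over 1.5 times under that scaling are given with both values below, with this shift left in. Less the median of all genes, the WT changes of DKK2 (-0.364, then -0.365) and FZD3 (0.033, then 0.036) stayed close. So did those of FZD1 (-0.17, then -0.20) and TCF7 (-0.22, then -0.25), while FZD5 went from 1.28 to 1.61.

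**Figure D1:**
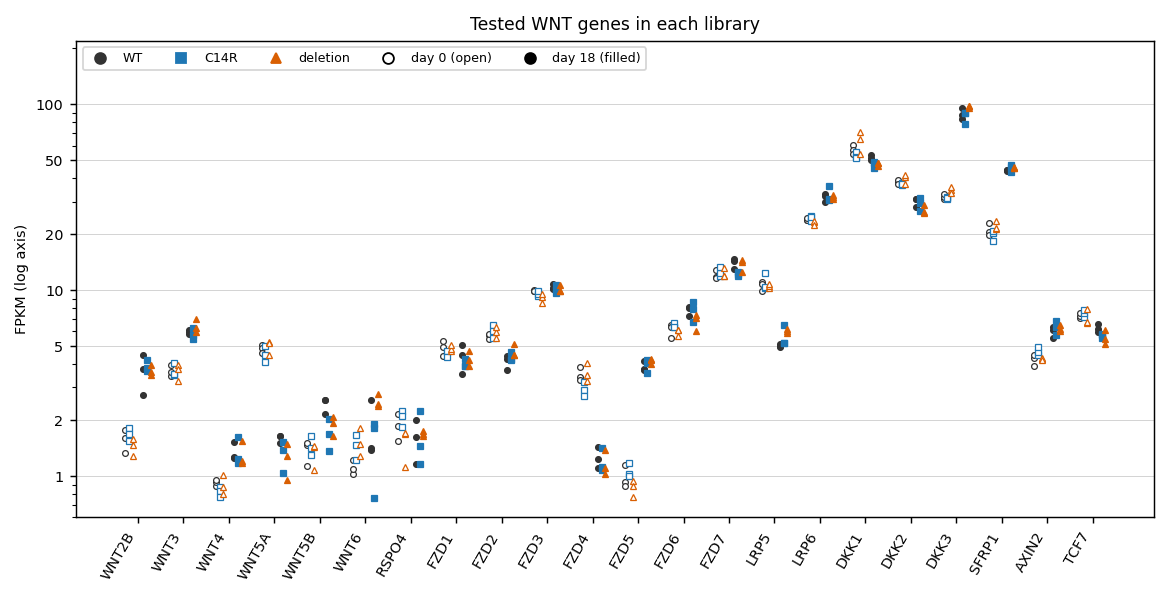
FPKM (log axis) of the 22 tested WNT genes in each of the 18 libraries, with open symbols for day 0 and filled symbols for day 18, and shape and colour for the construct. The 9 day 18 values of DKK3 (78.8 to 97.7 FPKM) lie above, and those of WNT5A (0.947 to 1.65 FPKM) below, their day 0 values, while the 3 constructs lie close together within a day.

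Other cell programmes moved with the same comparison. Of 10 mesenchymal or substrate-adherent markers, 8 were tested and all 8 fell in each line, their summed level going from 1031 to 1202 FPKM at day 0 to 160 to 177 at day 18. All 7 tested of 8 neuron markers rose (summed level 788 to 836 against 1542 to 1687 FPKM), and all 5 proliferation markers fell (253 to 282 against 95.1 to 123). Schwann cell and glia markers summed to 3.36 to 5.01 FPKM at day 0 and 8.95 to 10.9 at day 18, with FOXD3 listed at 0 in every day 0 library, and both tested genes of that list of 7 rose. Of the 3 blood markers only CD68 was tested, and it fell from 5.36 to 6.85 FPKM to 1.09 to 2.24. Of the sympathetic neuroblast markers, DBH read 56.2 to 69.2 FPKM at day 0 and 288 to 476 at day 18. Their part in the WNT results was not tested, and in bulk RNA fewer cells of a type and less RNA per cell cannot be told apart.

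WNT5A, a ligand best known for signalling without beta-catenin, was the most abundant WNT transcript at day 0 and lost that place by day 18. Its day 0 values were 5.05, 4.91 and 4.57 FPKM in WT, 5.00, 4.09 and 4.47 in C14R, and 5.29, 5.17 and 4.49 in deletion libraries. At day 18 they were 1.5, 1.65 and 1.64 in WT, 1.03, 1.38 and 1.53 in C14R, and 1.27, 0.947 and 1.48 in deletion. The 9 values of each day did not overlap, and the WT means differed 3.03-fold. The log2 change was -1.17 (SE 0.10, limma adjusted p = 1.3e-08) in WT, -1.26 in C14R and -1.43 in deletion. The gene lies at chr3:55465715-55490539 on the minus strand (GRCh38, GENCODE release 29, as for all gene positions here), and no other annotated gene overlaps its exons.

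WNT3, a ligand of the beta-catenin branch, rose. It read 3.98, 3.47 and 3.62 FPKM in WT, 4.07, 3.51 and 3.54 in C14R, and 3.26, 3.95 and 3.76 in deletion libraries at day 0. By day 18 the values were 5.80, 5.97 and 6.13 in WT, 5.71, 5.46 and 6.24 in C14R, and 6.29, 6.97 and 5.92 in deletion. Every day 18 value was above every day 0 value. Its log2 change was 0.57 (SE 0.08, adjusted p = 3.91e-06, limma) in WT, 0.53 in C14R and 0.67 in deletion.

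WNT2B, another ligand that can signal through beta-catenin, rose 2.34-fold between the WT means. Its 9 day 0 libraries lay between 1.28 and 1.82 FPKM (median 1.59). At day 18 the values were 2.75, 3.76 and 4.46 in WT, 4.21, 3.67 and 3.83 in C14R, and 3.5, 3.65 and 3.94 in deletion. The lowest day 18 library, WT replicate 1, was still above the highest of day 0. WNT2B had a log2 change of 0.85 (SE 0.11, adjusted p = 2.84e-06, limma) in WT, 0.87 in C14R and 0.94 in deletion. The exons of WNT2B (chr1:112466541-112530165, plus strand) overlap those of ST7L on the other strand over 2661 bases (21.2%). The use of strand in counting is not given in the sources used here, and ST7L read 5.08 to 6.70 FPKM at day 0 and 5.39 to 7.56 at day 18.

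The order of the ligands changed within each library. At day 0 WNT5A exceeded WNT3 in 9 of 9 libraries, and at day 18 WNT3 came first and WNT2B second in 9 of 9. WNT5A made up 29.1% to 37.3% of the summed FPKM of the 19 WNT genes at day 0 and 4.84% to 8.85% at day 18. WNT3 went from 23.0% to 27.4% to 31.1% to 35.7%, and WNT2B from 9.34% to 12.6% to 16.2% to 26.3%. The sum itself was 13.7 to 15.6 FPKM at day 0 and 16.0 to 19.6 at day 18. These shares were chosen after the values had been seen and are given without a test.

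**Figure D2:**
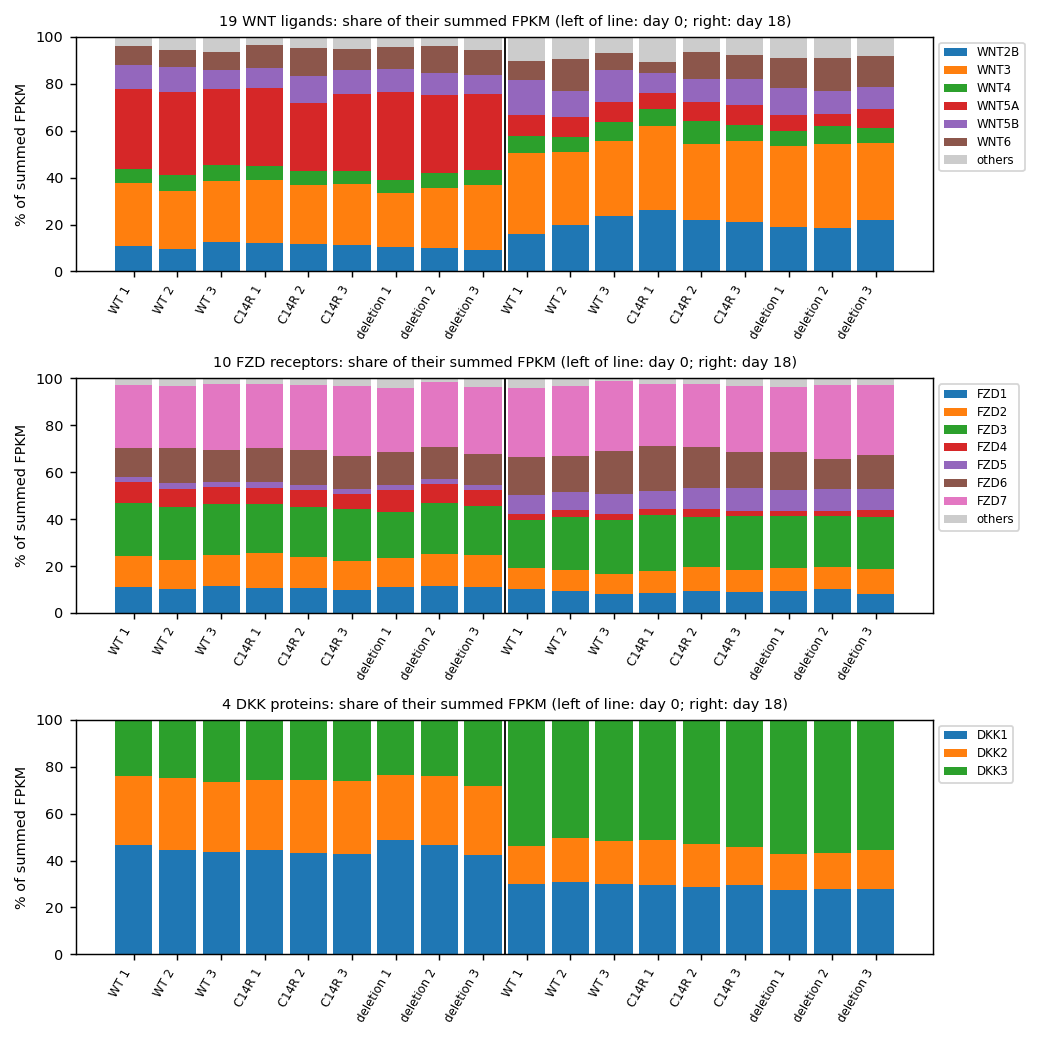
Share of the summed FPKM held by each gene of the WNT, FZD and DKK families in every library (stacked bars, % of the family sum, genes below the test filter as others), with day 0 left and day 18 right of the line. WNT5A shrinks from 29.1% to 37.3% at day 0 to 4.84% to 8.85% at day 18, FZD5 grows from at most 2.68% to at least 7.92%, and DKK3 grows from at most 28.2% to at least 50.3%.

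The remaining tested ligands, WNT4, WNT5B and WNT6, read at most 2.76 FPKM in any library. WNT4, a ligand of kidney and gonad development that is also found in neural tissue, read 0.774 to 1.01 FPKM at day 0 and 1.17 to 1.62 at day 18, with no overlap of the days, and its log2 change was 0.29 (adjusted p = 0.0113), 0.36 (0.00266) and 0.28 (0.0143) in WT, C14R and deletion (limma). The WT call was lost without WT replicate 3 of day 18 (adjusted p = 0.0552), and the deletion call without deletion replicate 1 of day 0 (0.0556) or replicate 2 of day 18 (0.0788). Without the 4 SNORD3A-rich libraries of day 0 the changes were 0.27, 0.35 and 0.24. The WT and deletion calls did not pass there (limma adjusted p = 0.0523 and 0.0823). That fit holds fewer libraries, with only replicate 2 of C14R at day 0, so no C14R call is given for it. With small RNA genes left out the changes were 0.57, 0.66 and 0.56 and all passed.

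WNT5B, the close relative of WNT5A, went the other way from it. In WT its 3 values were 1.47, 1.5 and 1.13 FPKM at day 0, and by day 18 they were 2.56, 2.15 and 2.57 (log2 change 0.53, SE 0.11, limma adjusted p = 0.000317). In deletion it read 1.44, 1.44 and 1.07, then 2.09, 1.93 and 1.64 (0.32, adjusted p = 0.0152, limma), and this call was lost without deletion replicate 3 of day 0 (0.0828) or replicate 1 of day 18 (0.0642). In C14R it read 1.30, 1.65 and 1.41, then 1.37, 1.68 and 2.03, groups that overlapped (0.13, adjusted p = 0.287, limma), and it passed there when limma weighted the libraries (0.27, adjusted p = 0.0204). The WT and deletion changes were 0.87 and 0.60 with small RNA genes left out. The C14R change of WNT5B was 0.33 under that scaling and did not pass (limma adjusted p = 0.053). The C14R by day interaction did not pass (-0.40, SE 0.16, limma adjusted p = 0.789).

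WNT6, an ectodermal ligand used in neural crest induction, had the widest standard error of the tested members. It read 1.38, 2.55 and 1.41 FPKM in WT, 0.761, 1.89 and 1.80 in C14R, and 2.37, 2.76 and 2.46 in deletion libraries of day 18, against 1.03 to 1.81 FPKM over those of day 0. It passed only in deletion (log2 change 0.49, SE 0.17, limma adjusted p = 0.0175). That call was lost without deletion replicate 1 of day 0 (0.0673) or replicate 2 of day 18 (0.0573), and without the 4 SNORD3A-rich libraries (0.0975). It was 0.81 with small RNA genes left out. In WT the change of 0.37 had an adjusted p of 0.0622 (limma), and it passed without WT replicate 1 (0.0364) or 3 (0.0429) of day 18, or with C14R replicate 1 of day 18 left out of the fit (0.0181). The WT change also passed with weighted libraries (0.51, 0.00255) and with small RNA genes left out (0.66, 0.0164). In C14R the change was -0.01, and 0.12 with small RNA genes left out.

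RSPO4 was the tested R-spondin. It read 1.11 to 2.23 FPKM at day 0 and 1.16 to 2.23 at day 18, the days overlapped, and it did not pass in any line (log2 change -0.15, -0.24 and 0.12; limma adjusted p = 0.371, 0.146 and 0.475). Without C14R replicate 2 of day 18 the C14R change was -0.40 with an adjusted p of 0.0182 (limma). With small RNA genes left out the RSPO4 changes were -0.03, -0.17 and 0.34 in WT, C14R and deletion. None of them passed (limma adjusted p = 0.904, 0.439 and 0.114).

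Among the receptors, FZD5 rose most. It read 0.931, 1.14 and 0.879 FPKM in WT, 1.18, 1.02 and 0.999 in C14R, and 0.773, 0.941 and 0.886 in deletion libraries at day 0. Its day 18 values were 4.17, 3.78 and 3.74 in WT, 3.59, 4.08 and 4.19 in C14R, and 3.99, 4.28 and 4.22 in deletion. The lowest day 18 library was above the highest day 0 library by more than the spread within either day, and the WT means differed 3.96-fold. On the log2 scale FZD5 rose by 1.30 (SE 0.08, limma adjusted p = 1.14e-10) in WT, 1.26 in C14R and 1.47 in deletion. FZD5 (chr2:207762586-207769563, minus strand) shares no exon bases with another annotated gene.

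FZD4, which also serves as receptor for norrin in retinal vessels, fell. It read 3.87, 3.39 and 3.27 FPKM in WT, 2.90, 3.19 and 2.69 in C14R, and 4.08, 3.48 and 3.25 in deletion libraries at day 0. These became 1.23, 1.43 and 1.11 in WT, 1.08, 1.41 and 1.12 in C14R, and 1.10, 1.02 and 1.37 in deletion. The days did not overlap. The fitted log2 change was -1.0 (SE 0.10, limma adjusted p = 6.47e-08) in WT, -0.83 in C14R and -1.09 in deletion. FZD4 (chr11:86945679-86955391, minus strand) shares 1399 exon bases (18.9%) with PRSS23 on the other strand, and PRSS23 went from 36.4 to 44.4 FPKM at day 0 to 0.425 to 1.15 at day 18, a 41.1-fold difference of the WT means. The part of PRSS23 reads in the FZD4 values was not tested.

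FZD2, a receptor for WNT5A among others, fell in each line, from 5.44 to 6.52 FPKM at day 0 to 3.71 to 5.11 at day 18 with no overlap (log2 change -0.38, -0.39 and -0.28; limma adjusted p = 0.000215, 0.000195 and 0.0027). With small RNA genes left out the WT change was -0.24 (0.0182), and the deletion change of -0.11 did not pass (0.248). FZD6, which acts in planar polarity of hair follicles, passed as higher in WT (0.31, limma adjusted p = 0.00319) and C14R (0.23, 0.0204), while its deletion change was 0.16 (0.0961). Its days overlapped (5.51 to 6.66 against 6.01 to 8.59 FPKM). The C14R call was lost when any of 4 of the 6 C14R libraries was left out (adjusted p = 0.0529 and 0.0541 without replicates 1 and 3 of day 0, and 0.103 and 0.0542 without replicates 1 and 2 of day 18; limma), and the deletion change passed without deletion replicate 2 of day 18 (0.0232). The C14R call was also lost with weighted libraries (0.149) and with only the C14R libraries fitted (0.0524). Without the 4 SNORD3A-rich libraries the C14R change was 0.19. FZD6 passed in all 3 lines with small RNA genes left out (0.54, 0.43 and 0.38).

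FZD7, the receptor with the highest level, read 11.7 to 13.3 FPKM at day 0 and 11.9 to 14.7 at day 18. Its log2 change was 0.20 in WT (limma adjusted p = 0.012; 0.0522 without WT replicate 1 of day 18), 0.15 in deletion (0.0475) and -0.03 in C14R (0.681), where small RNA genes left out turned it to 0.15. The deletion call was lost when any of 4 of the 6 deletion libraries was left out (adjusted p = 0.141 and 0.140 without replicates 1 and 2 of day 0, 0.183 and 0.143 without replicates 2 and 3 of day 18), without the filter (0.0601), under median-of-ratios scaling (0.106) and with only the deletion libraries fitted (0.0773). Without the 4 SNORD3A-rich libraries the changes were 0.18 in WT and 0.13 in deletion, and neither passed (limma adjusted p = 0.0586 and 0.17). With small RNA genes left out the 2 changes were 0.41 and 0.37.

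FZD3, used in axon tract formation, read 8.48 to 9.96 FPKM at day 0 and 9.71 to 10.8 at day 18. It passed in deletion (0.15, limma adjusted p = 0.0176), but not without deletion replicate 1 of day 0 (0.1) or replicate 3 of day 18 (0.0898), and its changes of 0.06 and 0.07 in WT and C14R did not pass (0.326 and 0.228). The deletion call was also lost under median-of-ratios scaling (0.0539) and without the 4 SNORD3A-rich libraries (0.142). With small RNA genes left out FZD3 passed in all 3 lines (0.27, 0.26 and 0.37; limma adjusted p = 0.000677, 0.000883 and 1.99e-05). FZD1 read 4.37 to 5.30 and 3.52 to 5.08 FPKM. Its changes of -0.14, -0.15 and -0.17 did not pass (limma adjusted p = 0.172, 0.165 and 0.118), turned to 0.03, 0.01 and 0.02 with small RNA genes left out, and in WT reached -0.24 (0.0278) without WT replicate 1 of day 18.

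Ordered by level, FZD7 and FZD3 came first and second on both days without overlapping each other. FZD6 and FZD2 overlapped at day 0, and FZD1, FZD4 and FZD5 followed in that order. At day 18 FZD6 came next and FZD4 last of the tested receptors, while FZD1, FZD2 and FZD5 overlapped between 3.52 and 5.11 FPKM. The summed FPKM of the 10 FZD genes was 42.6 to 46.2 at day 0 and 43.8 to 50.0 at day 18. Within it the share of FZD5 went from 1.78% to 2.68% to 7.92% to 9.47%, and that of FZD4 from 6.04% to 9.41% to 2.21% to 3.12%.

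The co-receptors moved apart. LRP5 fell: it read 11.1, 10.9 and 9.86 FPKM in WT, 10.3, 12.4 and 10.4 in C14R, and 10.3, 10.6 and 10.7 in deletion libraries at day 0. At day 18 it read 4.97, 5.17 and 5.04 in WT, 5.21, 6.52 and 5.21 in C14R, and 5.85, 6.17 and 6.0 in deletion. The log2 change was -0.94 (SE 0.08, limma adjusted p = 7.24e-09) in WT, -0.86 in C14R and -0.72 in deletion, with no overlap of the days.

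LRP6 rose from 23.9, 23.8 and 24.5 FPKM to 29.9, 32.2 and 32.7 in WT. In C14R it went from 25.0, 23.7 and 24.7 to 36.5, 30.7 and 31.0, and in deletion from 23.2, 23.5 and 22.4 to 30.8, 32.6 and 31.7. The day 18 libraries were all above those of day 0, and the log2 change was 0.38 (SE 0.06, limma adjusted p = 8.95e-06), 0.40 and 0.44. Its WT and deletion changes were 0.59 and 0.67 with small RNA genes left out. The ratio of LRP6 to LRP5 was 1.91 to 2.49 in the day 0 libraries and 4.71 to 7.0 in those of day 18, a description chosen after the values were seen. LRP5 (chr11:68312609-68449275, plus strand) and LRP6 (chr12:12116025-12267012, minus strand) share no exon bases with other annotated genes.

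The 3 tested Dickkopf genes had the highest levels of all members at day 0, and DKK3, DKK1 and SFRP1 at day 18, while 5 of the 9 antagonists lay below the filter. DKK3, a divergent Dickkopf protein whose role in WNT signalling is less settled than that of DKK1, read 31.0, 31.9 and 32.9 FPKM in WT, 31.7, 31.1 and 31.2 in C14R, and 34.7, 33.5 and 35.9 in deletion libraries at day 0. The day 18 libraries read 95.1, 83.4 and 87.5 in WT, 78.8, 90.2 and 89.6 in C14R, and 97.5, 97.7 and 95.3 in deletion. The log2 change was 1.44 (SE 0.05, limma adjusted p = 1e-13) in WT, 1.43 in C14R and 1.45 in deletion, a 2.78-fold difference of the WT means with no overlap between days. The gene lies at chr11:11963106-12009769 on the minus strand and shares no exon bases with another annotated gene.

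SFRP1, which binds WNT ligands outside the cell, rose to about the same level in every line. It read 23.0, 20.6 and 19.9 FPKM in WT, 20.3, 20.7 and 18.4 in C14R, and 23.7, 21.4 and 21.7 in deletion libraries at day 0. Day 18 values were 43.9, 44.5 and 44.3 in WT, 43.5, 47.0 and 46.2 in C14R, and 45.9, 45.3 and 45.4 in deletion. The log2 change was 1.03 (SE 0.06, limma adjusted p = 2.07e-11), 1.17 and 1.00. SFRP1 made up 95.4% to 98.8% of the summed FPKM of the 4 SFRP genes in every library.

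DKK2 fell from 36.9 to 41.6 FPKM at day 0 to 25.9 to 31.5 at day 18 without overlap (log2 change -0.34, -0.35 and -0.55 in WT, C14R and deletion; limma adjusted p = 7.41e-05, 5.33e-05 and 2.65e-07). With small RNA genes left out the WT change was -0.14 and did not pass (0.0729), and the others were -0.17 (0.0288) and -0.34 (0.000177). DKK1, the classical LRP5 and LRP6 inhibitor, read 60.3, 56.5 and 54.1 FPKM in WT, 55.3, 52.1 and 51.7 in C14R, and 71.4, 65.1 and 54.1 in deletion libraries at day 0. At day 18 it read 53.1, 51.5 and 50.4 in WT, 45.4, 49.0 and 48.5 in C14R, and 46.8, 48.2 and 48.5 in deletion. Within each line the days did not overlap, but over all libraries they did.

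The change of DKK1 passed in deletion (-0.39, SE 0.07, limma adjusted p = 9e-05), and was -0.18 (0.0296) with small RNA genes left out. In WT (-0.14, 0.0914) and C14R (-0.15, 0.0617) it did not pass. Both passed under median-of-ratios scaling (0.0471 and 0.0364) and with only the libraries compared (0.0252 and 0.0345). With small RNA genes left out both turned to 0.07 and 0.03. Less the median of all genes they were -0.16 and -0.17 there, beside -0.16 and -0.17 in the main fit. The deletion by day interaction for DKK1 did not pass either (-0.26, SE 0.10, limma adjusted p = 0.601). At day 0 every library ranked DKK1 above DKK2 above DKK3, and at day 18 every library ranked DKK3 above DKK1 above DKK2. The summed FPKM of the DKK genes went from 120 to 147 to 154 to 176, and the share of DKK3 in it from 23.7% to 28.2% to 50.3% to 57.3%.

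AXIN2, a negative regulator of beta-catenin that is itself a direct target of the pathway, rose. It read 3.89, 4.29 and 4.50 FPKM in WT, 4.46, 4.63 and 4.92 in C14R, and 4.26, 4.29 and 4.21 in deletion libraries at day 0. The day 18 values were 6.35, 5.56 and 6.12 in WT, 6.30, 6.87 and 5.71 in C14R, and 6.51, 6.16 and 6.02 in deletion. All day 18 values were above all day 0 values, and the log2 change was 0.42 (SE 0.07, limma adjusted p = 3.53e-05), 0.36 and 0.46. The 3 changes were 0.67, 0.58 and 0.72 with small RNA genes left out. AXIN2 (chr17:65528563-65561647, minus strand) shares 1316 exon bases (25.2%) with the annotated gene AC004805.1 on the same strand, so fragments of both could have been divided in ways that were not checked.

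TCF7, a nuclear partner of beta-catenin, fell from 6.69 to 7.96 FPKM at day 0 to 5.11 to 6.54 at day 18 without overlap. Its log2 change was -0.20 in WT (limma adjusted p = 0.017), -0.35 in C14R (0.000256) and -0.31 in deletion (0.000671). The WT call was lost without WT replicate 3 of day 0 (0.0611) or of day 18 (0.0627). With small RNA genes left out neither the WT change of -0.02 (0.846) nor the deletion change of -0.13 (0.134) passed, and the C14R change was -0.20 (0.0267).

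**Figure D3:**
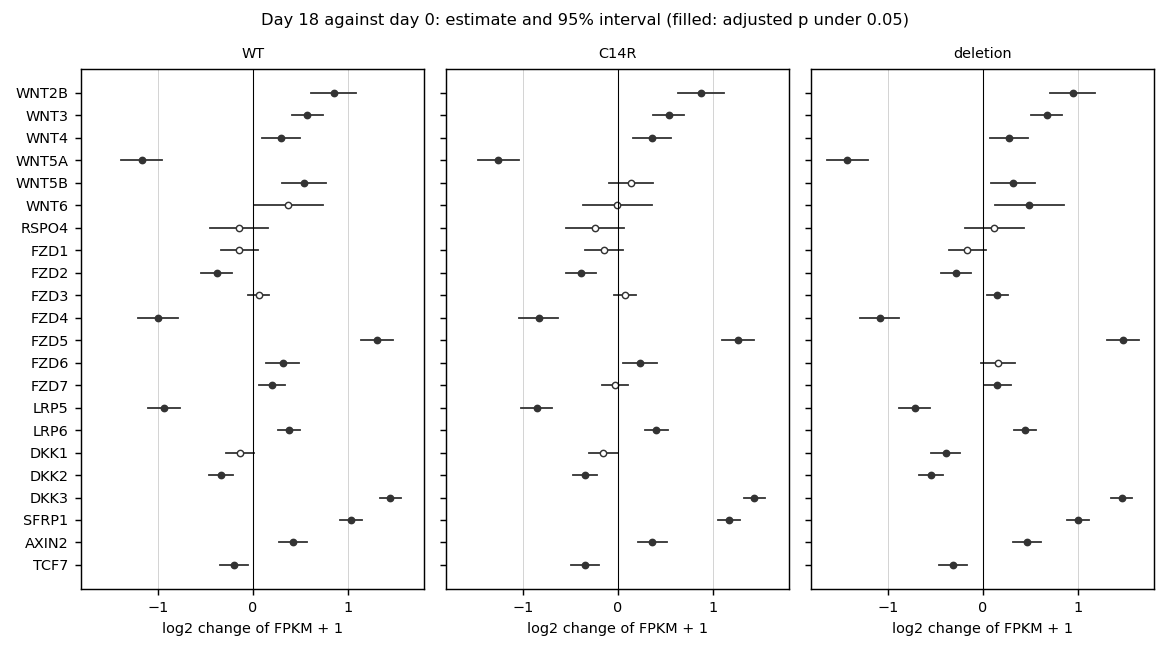
Change of each tested WNT gene from day 0 to day 18 in the WT, C14R and deletion lines (log2 change of FPKM + 1, points, with 95% intervals), filled where the adjusted p was under 0.05. DKK3 and FZD5 lie above 1 in every line and WNT5A between -1.43 and -1.17, while WNT5B, WNT6, FZD3, FZD6, FZD7 and DKK1 are filled in some panels and open in others.

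The members below the filter were not tested in the main analysis. Named because a group mean reached 0.5 FPKM were FZD8, FZD9, RSPO1, SFRP4 and WNT16. FZD8 read 0.468 to 1.09 FPKM at day 0 and 0.0486 to 0.132 at day 18. SFRP4 went the other way, from 0.0944 to 0.371 FPKM to 0.833 to 1.52, and RSPO1 from 0 to 0.0818 to 0.252 to 0.832, all 3 genes without overlap of the days. FZD9 read 0.194 to 0.737 and 0.437 to 2.11 FPKM and WNT16 0.216 to 0.403 and 0.258 to 0.835, both with overlap. LEF1, named after its values were seen, read 0.136 to 0.336 FPKM at day 0 and was listed at 0 in 6 of 9 day 18 libraries (at most 0.0467).

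The other 19 (DKK4, FZD10, RSPO2, RSPO3, SFRP2, SFRP5, WIF1, WNT1, WNT2, WNT3A, WNT7A, WNT7B, WNT8A, WNT8B, WNT9A, WNT9B, WNT10A, WNT10B and WNT11) did not exceed 0.501 FPKM in any library. Fitted without the filter, 4 of them passed as higher in WT, 4 in C14R and 4 in deletion, and WNT7B passed as lower in deletion (background 54.2%, 53.9% and 54.6% of 21412 genes). SFRP5, a relative of SFRP1, passed in all 3 lines (log2 change 0.24, 0.21 and 0.13; limma adjusted p = 0.000849, 0.0022 and 0.0339), going from 0.0375 to 0.152 FPKM at day 0 to 0.149 to 0.347 at day 18. WNT11, a ligand known for signalling without beta-catenin, read at most 0.0486 FPKM at day 0 and 0.0578 to 0.405 at day 18, with no overlap, and passed in WT (0.26, adjusted p = 0.0315, limma). These genes were chosen after their values were seen, and their values rest on few fragments. Of the 19 ligands, 6 were thus measured well enough to test, against 7 of 10 Frizzled receptors and both co-receptors.

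Other genes of the pathway were followed in 5 lists of 61 genes, of which 50 were tested. In WT 21 were higher and 16 lower, in C14R 23 and 15, and in deletion 24 and 15. The share called was 74.0%, 76.0% and 78.0%, near the background of 72.2%, 72.9% and 73.0% over all genes, so these counts, and those of the single lists below, do not set the pathway apart. Among secreted and surface regulators, GPC3, a glypican that binds WNT and hedgehog ligands, fell (log2 change -2.18, SE 0.10, limma adjusted p = 2.65e-12; 13.0 to 18.1 FPKM at day 0, 1.85 to 2.98 at day 18). FRZB, a relative of SFRP1, rose (1.34; 2.34 to 2.71 against 6.32 to 8.54 FPKM), beside the rise of SFRP1 itself. In that list of 10 genes, 5 were tested, with 1 higher and 3 lower in WT. Of the 12 genes for receptors and their control, 10 were tested, with 4 higher and 4 lower in WT, and TNFRSF19, a receptor that is a known target of the pathway, rose from 3.15 to 4.6 to 17.8 to 19.8 FPKM (2.09).

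Inside the cell, 7 of the 16 tested beta-catenin pathway genes were higher and 2 lower in WT. APC2, the neuronal form of the APC scaffold, rose from 8.49 to 9.74 to 13.8 to 25.2 FPKM (1.12 on the log2 scale, limma adjusted p = 8e-07). Of 10 nuclear factors tested, 4 were higher and 4 lower. TCF7L2, like TCF7 a partner of beta-catenin, fell from 10.7 to 13.0 to 1.33 to 1.95 FPKM (-2.30, SE 0.07, limma adjusted p = 2.36e-14). The co-repressors TLE1 (-1.66) and TLE4 (-1.44) fell with it. In the planar polarity list 5 were higher and 3 lower of 9 tested, with DAAM1, a formin, at 1.15 and PRICKLE1 at -1.22. In C14R and deletion the 9 genes named from these lists passed in the same direction.

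No member differed between constructs past the threshold on either day. By limma 0 of 22 were called in C14R against WT at day 0 and day 18, in deletion against WT at day 0 and day 18, and in C14R against deletion at day 0 and day 18, where the background was 0%, 0.0363%, 0.0290%, 0.0725%, 0.0580% and 0.0290% of all genes. At an unadjusted p under 0.05 there were 0, 2, 2, 6, 4 and 3 members (0%, 9.09%, 9.09%, 27.3%, 18.2% and 13.6%). Over all genes the shares were 2.81%, 11.1%, 6.22%, 11.4%, 9.84% and 11.2%. Of the pathway lists 0 of 50 genes were called in any of these comparisons. The comparisons with WT share the WT libraries and cannot be read as separate evidence.

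The differences nearest to the threshold were small. For WNT5B at day 18, WT read 2.56, 2.15 and 2.57 FPKM and C14R 1.37, 1.68 and 2.03, so the groups did not overlap (log2 difference -0.35, SE 0.11, limma adjusted p = 0.221). Deletion read 2.09, 1.93 and 1.64, also below WT (-0.25, SE 0.11, adjusted p = 0.404). For FZD7 at day 18, C14R read 11.9, 12.2 and 12.6 FPKM below WT at 14.7, 14.3 and 13.0 (-0.18, SE 0.07, limma adjusted p = 0.302). For LRP5 at day 18, deletion at 5.85, 6.17 and 6.0 FPKM lay above WT at 4.97, 5.17 and 5.04 (0.21, SE 0.08, adjusted p = 0.322). Each of these missed the threshold across all genes. At day 18 the groups also did not overlap for 1528 of the 13785 tested genes in C14R against WT. In deletion against WT this held for 2607.

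Between the variants, the widest gap was that of WNT6 at day 18, where C14R at 0.761, 1.89 and 1.80 FPKM lay below deletion at 2.37, 2.76 and 2.46 (log2 difference -0.54, SE 0.17, limma adjusted p = 0.409). Its lowest value came from C14R replicate 1, the library that stood apart. DKK3 was lower in C14R than in deletion on both days (-0.14 and -0.17; adjusted p = 0.383 and 0.398). DKK1 was lower in C14R than in deletion at day 0 (-0.25, SE 0.07, adjusted p = 0.267, groups overlapping), and passed only when deletion replicate 3 of day 0 was left out (-0.36, adjusted p = 0.0496). In the latter group DKK1 read 71.4, 65.1 and 54.1 FPKM, and the library left out is the lowest.

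The intervals, 1 per gene and on the scale of log2(FPKM + 1), describe differences between these libraries only. That scale shrinks the changes of low genes: the 1.47-fold difference of the WNT4 means between days in WT was 0.29 on it. For deletion against WT at day 18, the 95% intervals of the 22 log2 differences lay between -0.48 and 0.73, and 21 of 22 were within 0.5 either way. For C14R against WT at day 18 they lay between -0.58 and 0.33, with 20 of 22 within 0.5. The change from day 0 to day 18 also did not differ past the threshold between variants and WT, with 0 of 22 interactions called in C14R (background 0%) and 0 of 22 in deletion (background 0.0145%). At an unadjusted p under 0.05 there were 2 in C14R (FZD7 and WNT5B) and 2 in deletion (DKK1 and DKK2). These are 9.09% of the members each, against 5.73% and 7.36% of all genes.

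**Figure D4:**
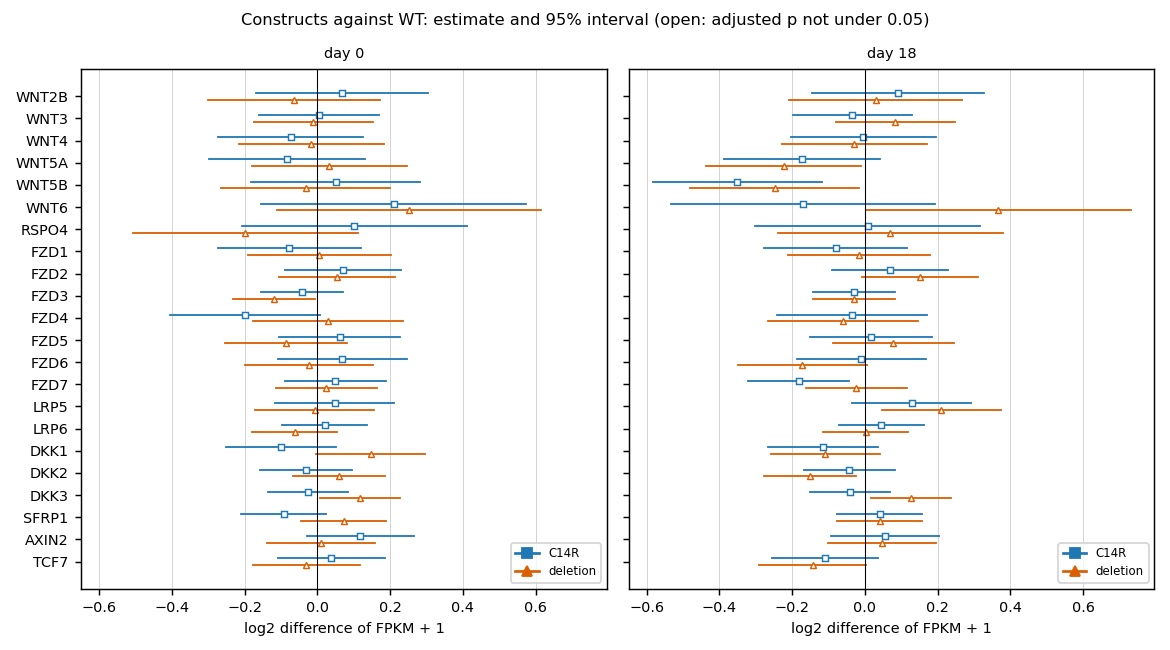
Difference of each tested WNT gene between C14R or deletion and WT at day 0 and at day 18 (log2 difference of FPKM + 1, points, with 95% intervals). All symbols are open because no adjusted p was under 0.05, and the largest difference from WT, that of WNT6 in deletion at day 18 (0.37), has an interval from 0.004 to 0.73.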

How the data were processed

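RNA-seq was measured in 18 libraries. The authors deposited FPKM per gene symbol and library. The submitters' processing notes name TopHat2, STAR, Cufflinks 2.2.1 and hg38, without their roles, and per the labels' protocols RNA was depleted of ribosomal RNA with Ribo-Zero. Each column name was a sample title, and 0 value columns lacked a sample. FPKM carry no counts, so counting error could not be given. Values were used as log2(FPKM + 1), which understates changes of low genes. The 13785 of 26372 genes with a mean of at least 1 FPKM were fitted with limma 3.58.1 (R 4.3.3, 6 group means, all 18 libraries, trended variance), and p-values were adjusted by Benjamini-Hochberg within each comparison. The scripts were tested on simulated data.

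All 22 tested members were named. Members under the filter were named where a group mean reached 0.5 FPKM, and pathway genes where the WT log2 change was at least 1 in size, at most 4 a list. Members and lists were chosen with earlier results of these data known. Alternatives were a pseudocount of 0.1, no filter, median-of-ratios scaling, small RNA genes left out, the replicate block, array weights, only the libraries compared, and each replicate left out. Fits without C14R replicate 1 of day 18, or without the 4 libraries rich in SNORD3A, were added after the values were seen. Without those 4, day 0 keeps replicates 2 and 3 of WT and deletion and only replicate 2 of C14R. An effect of SNORD3A on calls lost there cannot be told apart from the loss of libraries. Some marker genes of the sympathetic neuroblast list are not reported here.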

Additional observations from a re-analysis of the deposited data

How the results depend on the processing

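Without the filter, 27 members passed from day 0 to day 18 in WT, 23 in C14R and 29 in deletion, more than the 17, 15 and 19 reported because more genes were tested. The other alternatives gave 15 to 19, 13 to 16 and 15 to 19. Of the called members, 13 in WT and 12 in deletion passed under every alternative run. In C14R, with that same fit left out, only FZD6 lost its call under some alternatives. With small RNA genes left out, the WT changes of DKK1 and FZD1 turned to 0.0678 and 0.0291. Less the median of all genes they were -0.16 and -0.20 there, beside -0.16 and -0.17 in the main fit. Leaving out 1 library gave 16 to 18 calls in WT, 14 to 15 in C14R and 15 to 19 in deletion, and 0 to 1 in C14R against deletion at day 0. The other construct comparisons and both interactions gave 0 under every alternative run. The pathway count in WT was 37 and ranged from 35 to 44 over the alternatives run for it.

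Replicate numbers did not pair the libraries: libraries of 1 number and day had correlations of their deviations between -0.36 and 0.13 (median -0.05), and 2 of 18 correlated best with their own number. With the replicate block, 19 members passed in WT, 16 in C14R and 19 in deletion; DKK1 then passed in WT (limma adjusted p = 0.0381) and C14R (0.0233), and WNT6 in WT (0.0279). Without the 4 SNORD3A-rich libraries 15 members passed in WT and 15 in deletion, with fewer libraries left at day 0. Members under 1 FPKM are limited by depth, which was lower at day 0.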

Other observations

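Several WNT genes lie side by side in the genome (GRCh38, GENCODE release 29). In 2 of the 4 pairs below 1 gene was tested and its neighbour lay below the filter, and in the other two both lay below it. WNT3 and WNT9B point away from each other on chromosome 17, with 46 bases between their outermost annotated ends. The RefSeq promoters lie further apart, at chr17:46818693-46818942 for WNT3 and chr17:46851333-46851582 for WNT9B. WNT3 read 3.26 to 6.97 FPKM, while WNT9B was listed at 0 in every day 0 library and reached at most 0.0473 FPKM at day 18. WNT6 and WNT10A lie 6129 bases apart on chromosome 2, and WNT10A read at most 0.152 FPKM at day 0 and 0.132 to 0.501 at day 18. WNT10B and WNT1, 6689 bases apart on chromosome 12, stayed at or below 0.221 and 0.0667 FPKM. WNT9A and WNT3A, 59152 bases apart on chromosome 1, read at most 0.0836 and 0.0446 FPKM at day 0 and at most 0.363 and 0.158 at day 18.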
